A study of Neurospora crassa with 2 samples.

Results

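The genes described here encode the cytoplasmic ribosomal proteins of the filamentous fungus *Neurospora crassa*, measured by RNA-seq in wild type (WT) mycelia and in mycelia of the deletion mutant Δ*gul*-*1*. They were chosen by the wording of the annotation column of the deposited expression table (60S ribosomal protein, 40S ribosomal protein, ribosomal protein L or S, or cytoplasmic ribosomal protein), leaving out mitochondrial proteins. The wording of the rule uses no measured value, though the group was picked for description with earlier results of these data known. It gave 85 of the 9730 genes in the table, of which 50 were named as large (60S) subunit proteins and 26 as small (40S) subunit proteins. The other 9 carried no subunit in their names, being 8 genes of the *crp* (cytoplasmic ribosomal protein) series and NCU01948, annotated as ribosomal protein Srp1.

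The study set the Δ*gul*-*1* strain beside WT to learn how the transcriptome changes when the mutant grows as pellets of low viscosity. Δ*gul*-*1* is a knockout strain from the collection of *N. crassa* gene deletions and lacks *gul*-*1*, which encodes an mRNA-binding protein related to Ssd1 of yeast. Conidia of both strains were grown for 3 days under constant light in a submerged medium of Vogel's salts, Avicel (crystalline cellulose), yeast extract and Tween 80, and the mycelia were harvested by filtration. There was 1 library per strain, so the spread between cultures is unknown, no test was possible and no p-value is given.

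The ribosome translates mRNA with a small subunit, which reads the codons, and a large subunit, which joins the amino acids. Each subunit is built on ribosomal RNA by many proteins, most of which are needed in equal numbers, and in growing fungi the genes of these proteins are among the more strongly expressed and tend to be regulated together. Mitochondria have their own ribosomes with their own nuclear-encoded proteins, many of which bear the same letters and numbers as cytoplasmic proteins.

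The libraries held 20461987 reads assigned to genes in WT and 20341292 in Δ*gul*-*1*, and 9065 and 9119 genes had reads. The deleted gene, *gul*-*1* (NCU01197), had 21537 reads and 203.7 RPKM (reads per gene divided by the exon length and the total of the library) in WT. In the mutant 304 reads and 2.89 RPKM remained, 70.4-fold lower and in the direction of the labels. The 50 most abundant genes took 19.1% of the reads in WT and 16.0% in Δ*gul*-*1*, and none of the ribosomal protein genes was among them in either library. For conidia, the other cell type that a mycelial culture can hold, 13 genes were listed. These are the hydrophobin gene *eas* and the genes with conidiation in their annotation, regulators of conidiation included. Their summed level was 7371 RPKM in WT and 1653 RPKM in Δ*gul*-*1*, of which *eas* gave 5793 and 169.0 RPKM. Of the 12 conidiation genes above 20 RPKM in at least 1 library, 3 were higher in Δ*gul*-*1* by 25% or more and 3 lower by 20% or more. Over all genes above that level, 23.8% were higher and 11.5% lower. The higher genes included *con*-*10* (159.1 and 229.4 RPKM) and *con*-*6* (10.3 and 21.3 RPKM, above 20 RPKM in Δ*gul*-*1* alone). The lower included *con*-*8* (705.6 and 511.1 RPKM) beside *eas*. The part of conidia in the results below was not tested. In such bulk libraries, fewer cells of a type and less RNA per cell cannot be told apart.

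As a group, the ribosomal protein genes held almost the same share of both transcriptomes. They took 757777 reads or 3.70% of the WT library (exact binomial 95% interval 3.70 to 3.71%) and 748711 reads or 3.68% of the Δ*gul*-*1* library (3.67 to 3.69%). Their summed level was 27382 RPKM in WT and 27161 RPKM in the mutant, 0.992 of the former. The intervals here and below cover counting error alone, since reads without molecular identifiers are not independent molecules, and they say nothing of the difference between cultures.

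Both subunits were expressed at similar levels. The median large subunit gene was at 319.5 RPKM in WT and 301.8 RPKM in the mutant, and the median small subunit gene was at 313.4 and 332.4 RPKM. Among the 69 genes of high level, a set described below, these medians were 355.9 and 361.2 RPKM for the large subunit. For the small subunit they were 366.0 and 348.6 RPKM. The direction in which the medians moved thus depended on whether the genes of low level were included. The 50 large subunit genes summed to 15299 RPKM in WT and 15090 RPKM in the mutant, and the 26 small subunit genes summed to 9039 and 9047 RPKM. The large subunit sum was thus 1.69 times the small subunit sum in WT and 1.67 times in Δ*gul*-*1*, with more large than small subunit genes in the list. The 9 genes with no named subunit, which summed to 3043 and 3023 RPKM, are in neither sum, so these values depend on the annotation. The reads of the large subunit in Δ*gul*-*1*, per read assigned to any gene, were 0.987 of those in WT (0.983 to 0.992), while those of the small subunit were 0.998 of those in WT (0.993 to 1.00) and those of the genes with no named subunit 1.01 (1.00 to 1.02). The gap between the subunits was small beside the range of single genes within each of them.

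**Figure D1:**
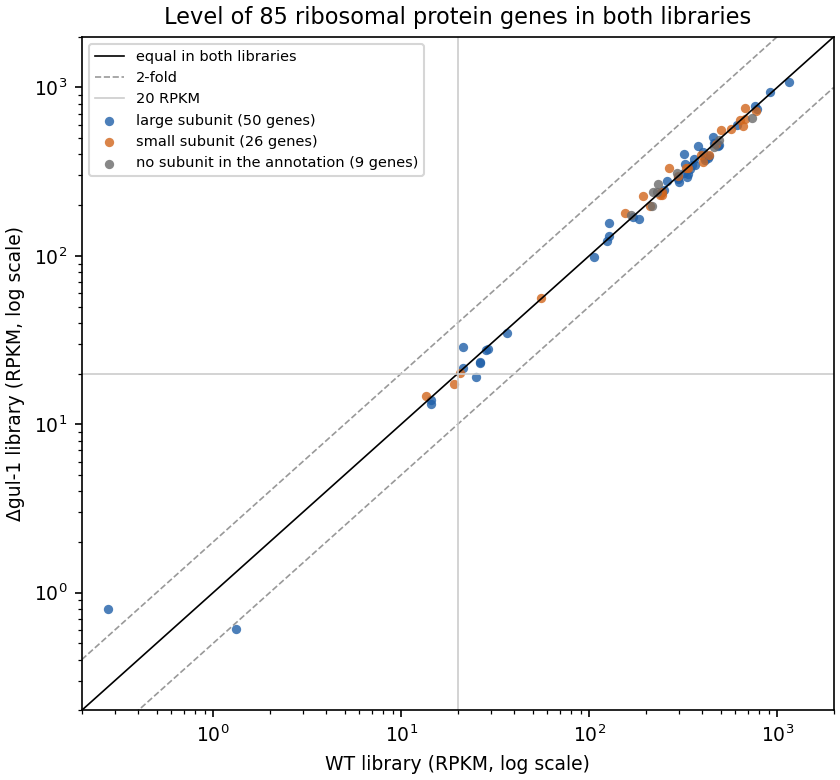
Level of the 85 ribosomal protein genes in the WT library (horizontal, RPKM, log scale) and in the Δ*gul*-*1* library (vertical, RPKM, log scale), with 1 point per gene coloured by subunit. The points lie close to the line of equal levels between 13.3 and 1154 RPKM, an empty stretch separates 16 genes of low level from 69 of high level, and the points beyond the 2-fold lines are 2 genes with fewer than 50 reads in either library.

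Among the highly expressed members, the order of levels was nearly the same in both libraries. NCU08990, for L39, a small protein that lines the exit tunnel of the large subunit, was the highest in both, with 1154 RPKM in WT and 1080 RPKM in Δ*gul*-*1*. NCU00294, for L10a, which forms the mobile stalk beside the exit site of tRNA, was the next in both with 910.7 and 939.7 RPKM. NCU08389, for L20 of the large subunit, was at 777.3 and 743.9 RPKM. These were the top genes of the large subunit in WT, while in the mutant NCU00464 (L32), with 765.2 RPKM in WT and 774.0 RPKM in the mutant, stood above L20. Their ratios of Δ*gul*-*1* to WT were 0.936, 1.03 and 0.957 for L39, L10a and L20.

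NCU03738, for S29, a zinc-binding protein of the small subunit, was at 771.8 RPKM in WT and 721.2 RPKM in Δ*gul*-*1*. NCU09476, for S25, was at 674.0 and 651.3 RPKM. NCU00475, for S18, which lies at the head of the small subunit, was at 672.7 and 752.2 RPKM, and it moved from rank 8 to rank 4 of the 85. Of the genes with no named subunit, *crp*-*7* (NCU08627) was the highest with 731.7 and 661.3 RPKM, *crp*-*5* (NCU04552) was at 489.7 and 484.3 RPKM, and *crp*-*2* (NCU07830) was at 463.8 and 445.8 RPKM. The lowest of these 9 in WT were *crp*-*3* (NCU07014) with 166.5 and 173.9 RPKM, *crp*-*15* (NCU00258) with 216.8 and 199.0 RPKM and *crp*-*10* (NCU00489) with 219.7 and 240.2 RPKM, so that all 9 belonged to the highly expressed members.

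Across the 85 genes, Spearman's rho between the levels in WT and in Δ*gul*-*1* was 0.988, and across the 69 highly expressed ones it was 0.978. These are descriptions across genes, which are not independent replicates and share the same libraries. The largest moves in rank among the 69 were upward for NCU00706 (L44, from 41 to 25), NCU06432 (S12, from 48 to 37), NCU05804 (L19, from 31 to 22) and NCU00413 (L2, from 22 to 14), and downward for NCU07562 (L43, from 38 to 46). The other 64 moved by 6 ranks or fewer. The level in WT was lower for genes with longer exons (rho = -0.35 over the 69), while the ratio of Δ*gul*-*1* to WT had a rho of 0.06 with exon length and of -0.12 with mean level. Because RPKM is divided by exon length, a negative rho between level and exon length is partly built in.

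For changes between the strains, genes above 20 RPKM in at least 1 library were kept, the floor of the study's methods. Of the 85 members, 79 passed, namely 46 of the large subunit, 24 of the small subunit and the 9 with no named subunit. None of the 79 differed by 2-fold in either direction, where the background over the 4409 genes past the floor was 3.88% higher and 2.63% lower in Δ*gul*-*1* by that fold. With this known, a smaller step was set beside it, a level in Δ*gul*-*1* higher by 25% or more, or lower by 20% or more, which are the same step on the log scale. By this step 3 of 79 members were higher and 1 was lower, and 75 were within it. Over all genes past the floor, 23.8% were higher and 11.5% lower by this step. Among the 776 genes whose mean level was within the range of the highly expressed members, a comparison added after the data were seen, 19.2% were higher and 15.9% lower by it, against 2 higher and none lower of the 69 such members.

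The ratios of the members were close to each other as well as to 1. Their log2 ratios ran from -0.40 to 0.44 with an interquartile range of 0.13, where all genes past the floor had an interquartile range of 0.42, as did the genes in the same range of levels. Counting error was smaller than this, since the 95% interval of the median member reached a factor of 1.03 to either side. The median log2 ratio was -0.03 for the 79 members, -0.04 for the large subunit, -0.01 for the small subunit and 0.06 for the genes with no named subunit, against 0.11 for all genes past the floor. The difference between the medians of large and small subunit was -0.03 on the log2 scale. Below the median of all genes lay 66 of the 79 members (83.5%), of which 40 of 46 were for the large subunit, 19 of 24 for the small subunit and 7 of 9 had no named subunit. The 776 genes in the same range of levels had a median log2 ratio of 0.005, and 63.0% of them lay below the median of all genes. For the 69 highly expressed members the median was -0.02 and the share 82.6%.

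**Figure D2:**
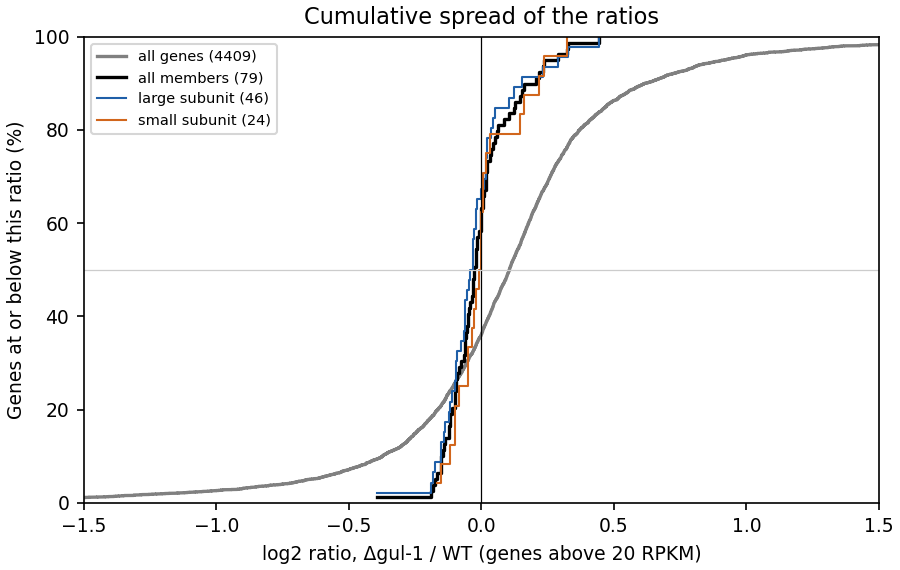
Percentage of genes (vertical) at or below each log2 ratio of Δ*gul*-*1* to WT (horizontal), for all 4409 genes above 20 RPKM, the 79 ribosomal protein genes and their large (46) and small (24) subunit genes. The curves of the members rise steeply around 0, with an interquartile range of 0.13 against 0.42 for all genes, and the curves of the subunits run close together. The plot ends at 1.5 on either side, and the curve of all genes goes on beyond it.

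How many members lay above or below a ratio of 1 depended on the scaling between the libraries, though most lay below it with each. On the deposited scale, 30 members were above a ratio of 1 and 49 below it, where 63.9% of all genes past the floor were above 1 and 36.1% below. Of the 776 genes in the same range of levels, 393 were above 1 and 383 below, against 27 and 42 of the 69 highly expressed members. With TMM factors, 10 members were above and 69 below, against 44.0% and 56.0% of all genes, because this scaling moved every log2 ratio by -0.15 and the median of all genes from 0.11 to -0.04. With the library total taken without the 50 most abundant genes, the shift was -0.06. The position of the members relative to all genes, a median log2 ratio 0.13 lower than theirs, does not depend on the scaling. Genes in the same range of levels, the 69 highly expressed members included, also lay lower than all genes. Their median was 0.10 lower than that of all genes, and that of the 69 highly expressed members was 0.13 lower. The directions given below are those on the deposited scale.

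At this depth many ratios differed from 1 by more than counting error. The counting interval lay wholly above 1 for 20 members (9 large, 6 small, 5 unnamed) and wholly below 1 for 30 (20 large, 7 small, 3 unnamed), while for 29 it held 1. Of all genes past the floor, 52.3% had an interval wholly above 1 and 26.9% wholly below. In the 776 genes in the same range of levels these shares were 44.2% and 41.2%, against 27.5% and 39.1% of the 69 highly expressed members. With TMM factors, 8 members (4 large, 3 small, 1 unnamed) had an interval wholly above 1 and 65 (39 large, 19 small, 7 unnamed) wholly below, against 32.1% and 44.2% of all genes on that scale.

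**Figure D3:**
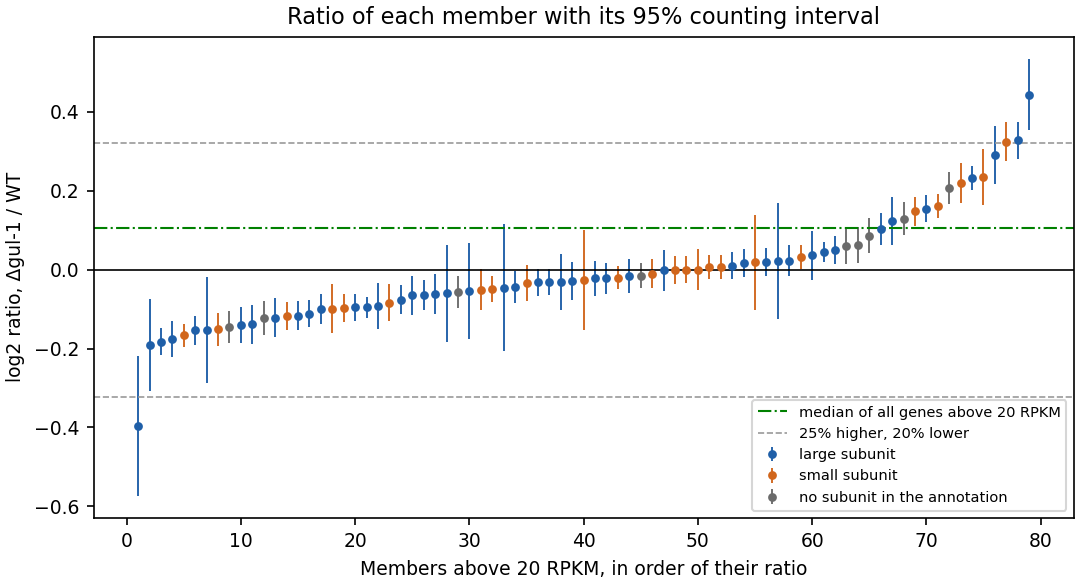
Log2 ratio of Δ*gul*-*1* to WT (vertical) for the 79 ribosomal protein genes above 20 RPKM, in order of their ratio (horizontal), with bars for the 95% counting interval and colours for the subunit. Of these, 75 lie between the dashed lines, which mark 25% higher and 20% lower, 66 lie below the median of all genes, and both subunits are spread along the whole order.

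Among the genes that were higher in Δ*gul*-*1*, those of the large subunit came first. NCU00706, for L44, which lies near the exit site of tRNA, had 6304 reads and 320.6 RPKM in WT and 7862 reads and 402.2 RPKM in the mutant, a ratio of 1.255 (1.21 to 1.30). NCU04614, annotated as L19 but expressed at a low level, had 1713 reads and 21.3 RPKM in WT and 2316 reads and 28.9 RPKM in the mutant, a ratio of 1.36 (1.28 to 1.45). It was the one member past the floor whose whole counting interval lay beyond the step of 25%. Just short of that step was NCU03302, for L36, with 127.3 and 155.7 RPKM and a ratio of 1.22 (1.16 to 1.29). The highly expressed L19 gene, NCU05804, whose product reaches across to the small subunit, was at 380.8 and 447.2 RPKM, a ratio of 1.17 (1.15 to 1.20), and NCU00413, for L2, which lies by the site of peptide bond formation, was at 457.8 and 509.6 RPKM, a ratio of 1.11 (1.09 to 1.14).

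In the small subunit, NCU06432, for S12, stood out with 5893 reads and 266.9 RPKM in WT and 7333 reads and 334.1 RPKM in the mutant, a ratio of 1.252 (1.21 to 1.30). NCU06048, for S30, which lies near the site of decoding, was at 193.1 and 227.3 RPKM, a ratio of 1.18 (1.12 to 1.24). NCU01552, for S28, which lies near the path by which mRNA leaves, was at 154.2 and 179.4 RPKM, a ratio of 1.16 (1.12 to 1.20). These were the small subunit genes with the largest ratios, and each had a neighbour or a namesake that did not share the difference, as given below.

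Of the genes with no named subunit, *ubi::crp*-*6* (NCU04553), in which a ribosomal protein is made as a fusion with ubiquitin, was at 232.2 RPKM in WT and 267.8 RPKM in the mutant, a ratio of 1.15 (1.12 to 1.19). The gene *crp*-*10* had a ratio of 1.09 (1.06 to 1.13), and *crp*-*4* (NCU04331), at 293.4 and 311.5 RPKM, one of 1.06 (1.03 to 1.10). L40, which is also made as a ubiquitin fusion in other eukaryotes, was at 363.6 and 347.5 RPKM in NCU05032, a ratio of 0.956 (0.924 to 0.989). The 2 genes thus lay on opposite sides of 1 on the deposited scale.

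The lowest ratio was that of NCU04336, another gene annotated as L19, which had 606 reads and 25.1 RPKM in WT and 458 reads and 19.1 RPKM in the mutant, a ratio of 0.760 (0.672 to 0.860). It passed the floor through the WT library alone. NCU08299, a gene of low level annotated as L3, followed with 26.4 and 23.1 RPKM, a ratio of 0.876 (0.808 to 0.9501). Among the highly expressed genes of the large subunit, the lowest ratio was that of NCU03757, for L4-A, a protein with a loop in the exit tunnel, at 431.2 and 380.0 RPKM, a ratio of 0.881 (0.860 to 0.903). Next to it was NCU07562, for the zinc-binding protein L43, at 331.4 and 293.4 RPKM, a ratio of 0.885 (0.858 to 0.913). With TMM factors these 4 genes were lower by 20% or more and no member was higher by 25% or more, where 19.5% of all genes were lower and 14.9% higher by this step. NCU03757 then had a ratio of 0.794.

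In the small subunit the lowest ratios were smaller in size. NCU01452, for S1 of the small subunit, had 20898 reads and 661.9 RPKM in WT and 18505 reads and 589.6 RPKM in the mutant, a ratio of 0.891 (0.873 to 0.909). NCU03038, for S13, which takes part in a bridge between the subunits, was at 403.2 and 363.1 RPKM, a ratio of 0.901 (0.875 to 0.927), and NCU03102, for S11, was at 432.8 and 398.9 RPKM, a ratio of 0.922 (0.899 to 0.945). Of the genes with no named subunit, the lowest ratios were those of *crp*-*7* with 0.904 (0.879 to 0.929), *crp*-*15* with 0.918 (0.891 to 0.946) and *crp*-*2* with 0.961 (0.935 to 0.988). NCU00634, for L14, whose mutant was among the morphological mutants that the study screened, was at 361.5 and 374.1 RPKM, a ratio of 1.03 (1.01 to 1.06), within the range of the other members.

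The members fell into a large set of high level and a small set of low level, a split noticed in the data. The cut was put at the widest step in WT level with the steps between the lowest genes set aside. A wider gap, from 1.32 to 13.6 RPKM in WT, parted NCU06749 and NCU04225 from the other low genes. In WT, 69 genes were at 105.6 RPKM or more and 16 genes at 55.8 RPKM or less, and in Δ*gul*-*1* the same step lay between 99.1 and 56.5 RPKM. The 16 low genes, 12 of the large and 4 of the small subunit, had a median of 21.3 RPKM in WT and 20.9 RPKM in Δ*gul*-*1*. All 26 genes annotated as mitochondrial ribosomal proteins, which ran from 7.74 to 67.5 RPKM in WT with a median of 24.8, were also below the lowest of the 69 in both libraries. The annotation calls the 16 genes 60S, 40S or simply ribosomal proteins, and whether their products enter cytoplasmic ribosomes was not tested.

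Shared names ran across this step. In all, 11 protein names were each borne by more than 1 gene, together 24 genes, and 9 of these names had 1 gene of high level and the rest low. Names were compared as written, so that L4 and L4-A counted as different. Genes whose names give no L or S number, the *crp* genes among them, were left out. NCU01221 (L16) was at 470.8 RPKM in WT and 460.3 RPKM in Δ*gul*-*1*, and its namesake NCU06768 was at 28.4 and 27.5 RPKM, 16.6-fold below it in WT. The highly expressed L2 gene was 15.8-fold above NCU02757 in WT (29.0 RPKM in WT and 28.0 RPKM in Δ*gul*-*1*). NCU02707 (L6), at 412.1 and 370.4 RPKM, was 28.5-fold above NCU04068 (14.5 and 13.3 RPKM). For these names, both genes of each name were within the step of 25% between the strains.

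NCU08500 (S8) was at 243.6 RPKM in WT and 237.9 RPKM in Δ*gul*-*1*, and its namesake NCU02951 was 12.8-fold below it in WT with 19.0 and 17.4 RPKM. The smallest distances were those of S13, where NCU09539 (55.8 and 56.5 RPKM) was 7.23-fold below NCU03038, and of L36, where NCU06038 (21.4 and 21.7 RPKM) was 5.96-fold below NCU03302. NCU09539 was the highest of the 16 low genes in both libraries. In L36 the highly expressed gene had a ratio of 1.22 and the low one a ratio of 1.02 (0.917 to 1.12).

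The L19 genes took different directions. The highly expressed NCU05804 and the low NCU04614 were higher in Δ*gul*-*1* and the low NCU04336 was lower, so that NCU04336 was above NCU04614 in WT (25.1 against 21.3 RPKM) and below it in Δ*gul*-*1* (19.1 against 28.9 RPKM). NCU04614 was the member with the highest ratio past the floor and NCU04336 the one with the lowest, and both had far fewer reads than NCU05804, which had 15459 and 18048.

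For L3, the protein whose loop reaches to the site of peptide bond formation, NCU06843 was at 411.5 RPKM in WT and 380.9 RPKM in the mutant, a ratio of 0.926 (0.904 to 0.947). NCU08299 was 15.6-fold below it in WT. Another gene of that name, NCU06749, was close to silent, with 46 reads and 1.32 RPKM in WT and 21 reads and 0.604 RPKM in the mutant, a ratio of 0.459 (0.260 to 0.785). NCU04225, a namesake of the highly expressed L20 gene, had 15 reads and 0.276 RPKM in WT and 43 reads and 0.796 RPKM in the mutant, a ratio of 2.88 (1.57 to 5.59). Both lay far under the floor, and at so few reads the size of their difference is poorly known.

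The names S12 and S28 were each shared by 2 genes of high level. For S12, NCU00971 was at 297.5 RPKM in WT and 297.4 RPKM in the mutant, a ratio of 1.00 (0.975 to 1.02), and NCU06432 was at 266.9 and 334.1 RPKM, so that the order of the genes turned between the libraries. For S28, NCU05599 was at 210.6 and 196.6 RPKM, a ratio of 0.934 (0.894 to 0.975), while NCU01552 had a ratio of 1.16, which brought the genes from 1.37-fold apart in WT to 1.10-fold apart in Δ*gul*-*1*. Only reads that mapped to 1 gene were counted. Whether genes of the same name are alike in sequence was not tested, so that reads lost between like copies cannot be told apart from a low level.

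**Figure D4:**
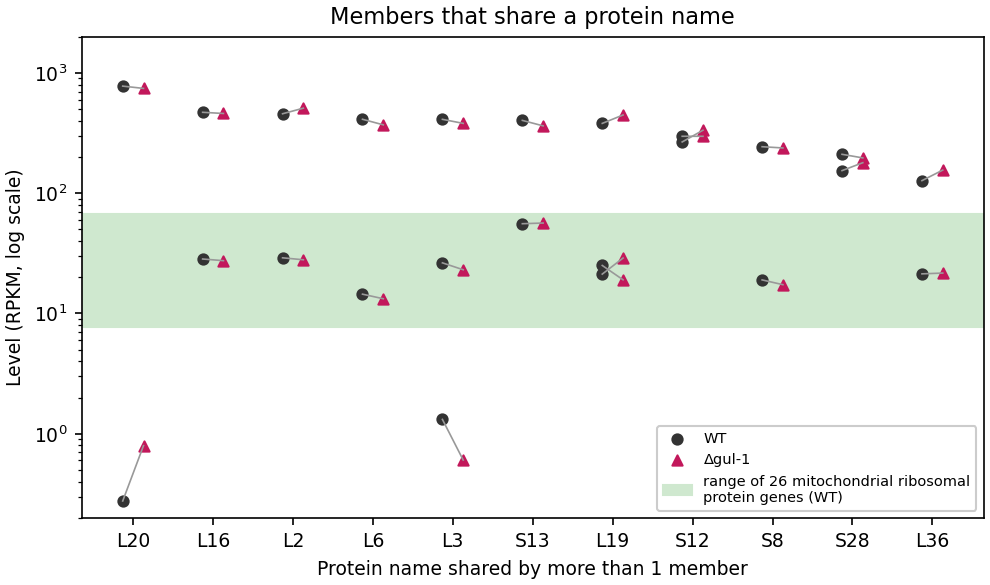
Level (vertical, RPKM, log scale) in WT (circles) and Δ*gul*-*1* (triangles) of the 24 genes that share 1 of 11 protein names (horizontal), with a line joining the values of each gene. The shaded band marks the range of 26 mitochondrial ribosomal protein genes in WT, from 7.74 to 67.5 RPKM. For 9 names, 1 gene lies well above the band and the others in or under it, and for S12 and S28 both genes lie above it.

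The other 5 low genes had no namesake among the members by names as written. NCU07852 (L13) was at 36.5 RPKM in WT and 35.0 RPKM in Δ*gul*-*1*, NCU01474 (L4) was at 26.2 and 23.6 RPKM, and NCU03827 (S9) was at 20.6 and 20.2 RPKM. The name of NCU01474 differs only by a suffix from that of the highly expressed NCU03757 (L4-A, 431.2 and 380.0 RPKM). Under the floor lay NCU08893 (L1) with 14.45 and 14.02 RPKM and NCU03394 (S15) with 13.6 and 14.8 RPKM. Apart from NCU06749 and NCU04225, the members under the floor were 4 genes, NCU02951, NCU04068, NCU08893 and NCU03394, with ratios from 0.913 to 1.09, and each of their counting intervals held 1. At the other side of the step, the lowest of the highly expressed genes in WT were NCU06661 (L22) with 105.6 and 99.1 RPKM, NCU07829 (L7) with 124.3 and 121.7 RPKM, and NCU03302.

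The genes were spread over the 7 chromosomes of the NC12 assembly (RefSeq positions), with 23 on chromosome I, 12 on II, 17 on III, 3 on IV, 18 on V, 5 on VI and 7 on VII. Chromosome III had the highest share of members among its genes (1.36%) and chromosome IV the lowest (0.202%). Members lay next to each other in 7 pairs, all of them of highly expressed genes, with at most 641 bases between the genes of a pair. In NCU07829 (L7) and *crp*-*2*, with 55 bases between them, the ratios were 0.979 and 0.961, and in NCU09475 (S5) and NCU09476 (S25), with 86 bases between them, they were 1.00 and 0.966. Across the pairs the log2 ratios of neighbours were between 0.03 and 0.32 apart, with a median of 0.12.

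The pairs with the widest gaps each held 1 of the genes that were higher in Δ*gul*-*1*. NCU06432 (S12, chromosome III, 1398867 to 1400292) had a ratio of 1.252, and its neighbour NCU06431 (S22, 1397265 to 1398762) one of 1.00 (0.965 to 1.04), with 104 bases between them and 236.9 RPKM for S22 in both libraries. NCU06048 (S30, chromosome VII, 1982787 to 1983682) had a ratio of 1.18 and NCU06047 (S2, 1984324 to 1986225) one of 1.00 (0.976 to 1.02). For *ubi::crp*-*6* (chromosome VII, 1462151 to 1464501) and *crp*-*5* (1464653 to 1466472) the ratios were 1.15 and 0.989. So a member could be above 1 while the adjoining member was at 1, on the deposited scale.

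The remaining pairs were NCU02707 (L6) with NCU10498 (L35), at 0.899 and 0.978, and NCU08963 (L30) with NCU08964 (L10), at 0.909 and 0.936. The annotated genes of the latter pair, on chromosome V, overlap by 170 bases, and the sources used here do not say whether reads were counted by strand, so that reads of the overlap cannot be told apart.

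The ribosomal stalk, which recruits elongation factors to the large subunit, was outside the 85 because its annotations contain the word acidic. NCU00979, for the stalk protein P2, had 4892 reads and 260.4 RPKM in WT and 8586 reads and 459.8 RPKM in the mutant, a ratio of 1.77 (1.70 to 1.83), which is above the ratio of every member past the floor. NCU07547, annotated as P0, the name of the protein at the base of the stalk, was under the floor with 19.5 and 15.6 RPKM, a ratio of 0.803 (0.707 to 0.911). Whether its product enters cytoplasmic ribosomes was not tested.

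Set beside other genes of translation, the ribosomal protein genes had the smallest interquartile range of log2 ratios, 0.13 against 0.15 for mitochondrial ribosomal proteins, 0.23 for elongation factors, 0.25 for ribosome biogenesis and 0.29 for initiation factors. The counting interval of the median gene reached a factor of 1.10 to either side for the mitochondrial list and 1.03 for the members. Counting error was thus wider in the mitochondrial list, and 0.13 against 0.15 does not show that the members were more alike. Of the 20 mitochondrial ribosomal protein genes past the floor (26 in all), 1 was higher by 25% or more and 2 lower by 20% or more. The median log2 ratio was -0.09 and the range from -0.36 to 0.33. The higher gene, NCU00211, at the upper end of this range, passed the floor through Δ*gul*-*1* alone, with 17.3 and 21.8 RPKM. Of the 26 translation initiation factor genes past the floor (27 in all), 4 were higher and 2 lower by the same step, with a median of 0.09. The gene *eif5A* (NCU05274), for the factor that helps ribosomes through stalling sequences, was at 831.2 RPKM in WT and 1206 RPKM in Δ*gul*-*1*, a log2 ratio of 0.54. NCU03876, for a subunit of initiation factor 3, which binds the small subunit, was at 172.2 and 246.0 RPKM, a log2 ratio of 0.51. None of the genes of these lists past the floor was 2-fold apart.

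Of the 6 elongation factor genes past the floor (9 in all), 1 was higher and 1 lower by the same step, with a median log2 ratio of 0.19. These shares, 16.7% each, compare with 23.8% higher and 11.5% lower of all genes past the floor. The higher was *tef*-*1* (NCU02003), for the factor that brings aminoacyl-tRNA to the ribosome, with 4145 RPKM in WT and 5186 RPKM in Δ*gul*-*1*, a log2 ratio of 0.32. The lower was NCU03737, named as elongation factor Tu, with 57.8 and 46.1 RPKM and a log2 ratio of -0.33. Mitochondrial factors were left out of this list only where the annotation names them so. Whether NCU03737 acts in cytoplasmic or mitochondrial translation was not tested. In WT the level of *tef*-*1* was thus above that of L39, the highest ribosomal protein gene.

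Of the 57 genes of ribosome biogenesis, 18 passed the floor, with 4 higher and 1 lower by the same step and a median log2 ratio of 0.01. These shares, 22.2% higher and 5.56% lower, compare with 23.8% and 11.5% of all genes past the floor. NCU00115, for the rRNA processing protein FCF2, had 12.9 RPKM in WT and 22.7 RPKM in Δ*gul*-*1*, a log2 ratio of 0.82. It passed the floor through Δ*gul*-*1* alone, as did NCU05293 (Rrp8), another of the higher genes, with 14.3 and 20.7 RPKM. The count of higher genes thus follows in part from the floor. NCU02428, for nucleolar essential protein 1, had 31.3 and 47.5 RPKM, a log2 ratio of 0.60. These lists differ from the ribosomal protein genes in level and so in counting error, and no difference between lists was tested.

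**Figure D5:**
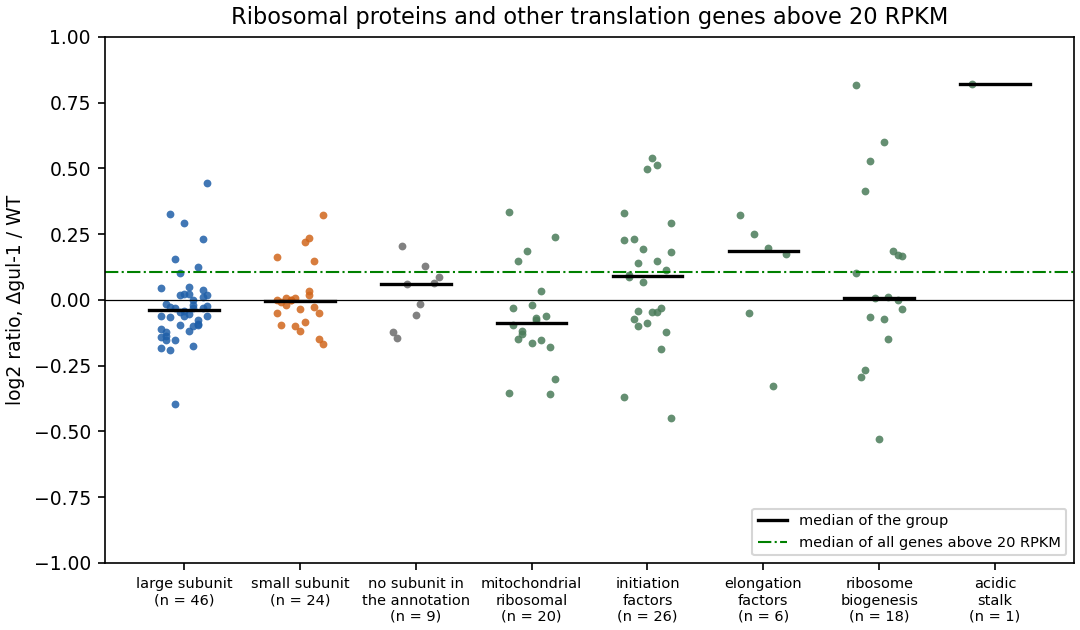
Log2 ratio of Δ*gul*-*1* to WT (vertical) for genes above 20 RPKM in the groups of ribosomal proteins and in other lists of translation genes (horizontal), with 1 point per gene and a bar for the median of each list. The large and small subunit medians are -0.04 and -0.01, the median of all genes is 0.11, and the stalk protein P2 lies at 0.82.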

How the data were processed

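RNA-seq libraries of WT and Δ*gul*-*1* mycelia, 1 each, were analysed. The authors mapped reads with TopHat2 2.0.8b to predicted *N. crassa* transcripts and counted, with HTSeq 0.5.4p2, reads unique to a gene; the deposited table gives these raw read counts per gene. It also gives RPKM computed by the authors from the counts, and the deposited values equalled reads over exon length and column total (largest gap 1.8e-12). The authors' own comparison in the table, a NOISeq probability of difference, was not used.

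Ratios of RPKM were taken with no pseudocount, with exact conditional binomial 95% intervals (Clopper and Pearson) from the reads. All 85 members were matched to RefSeq by locus tag. Subunits and related lists came from words of the annotation, and members, lists and folds were chosen with earlier results of these data known. Named were, in each subunit class, the 3 members of largest and the 3 of smallest ratio among those past the floor, the 3 highest and 3 lowest WT levels, genes sharing a name, ubiquitin fusions, NCU00634 and up to 2 genes of each related list; any further gene was picked with its values in view. No nucleotide or protein sequence was used here.

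Alternatives were TMM and median-of-ratios scaling, the total without the 50 most abundant genes, centring, floors of 5 and 50 RPKM and none, a pseudocount of 1 RPKM, folds of 1.5 and 3, counting intervals beyond the fold, and members named 60S or 40S alone; limits to highly expressed members and to genes of their levels were added after the data were seen. Steps were tested on simulated data. Python 3.11.15, pandas 2.3.3, numpy 2.4.6, scipy 1.17.1 and edgeR 4.0.16 in R 4.3.3 were used.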

Additional observations from a re-analysis of the deposited data

How the results depend on the processing

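With 1 library per strain, a change in scaling can move all ratios together and the spread between cultures cannot be had. No paired analysis was possible because each strain had 1 library. Of 121 alternative values, 70 stayed within counting error or 1.5 times the main count. The median of the genes with no named subunit, 0.06 on the deposited scale, turned negative with TMM and median-of-ratios scaling and on centring. The difference between the large and small subunit medians stayed at -0.03 in every alternative run for it. Leaving out ubiquitin fusions and acidic proteins was among these, but it removed no gene of either subunit class and so could not change the value.

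The median log2 ratio of the members became -0.18 with TMM and with median-of-ratios scaling, -0.086 with the total without the 50 most abundant genes and -0.13 when centred on all genes. For the large subunit these values were -0.19, -0.19, -0.097 and -0.14, for the small subunit -0.16, -0.16, -0.064 and -0.11, and for the genes with no named subunit -0.089, -0.089, 0.0018 and -0.045.

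The 3 members higher by 25% or more became 0 with TMM and with median-of-ratios scaling, 1 with the total without the 50 most abundant genes and 1 where the counting interval had to lie beyond the fold. The 1 member lower by 20% or more became 4 with TMM and with median-of-ratios scaling, 0 with the interval beyond the fold, 0 with a floor of 50 RPKM, 0 among the 69 highly expressed members and 2 with no floor. With no floor, 1 of 85 members was 2-fold or more higher and 1 lower, the genes with fewer than 50 reads. No other alternative run brought a member to 2-fold.

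Over all genes, the 1051 higher by 25% or more became 657 with either scaling, 1963 with a floor of 5 RPKM, 470 with a floor of 50 RPKM and 2976 with no floor, and the 509 lower by 20% or more became 861, 797, 291 and 1071. The 171 at least 2-fold higher became 317 with a floor of 5 RPKM, 87 with a floor of 50 RPKM and 735 with no floor, and 476 at 1.5-fold and 72 at 3-fold. The 116 at least 2-fold lower became 75 with a floor of 50 RPKM, 249 with no floor, 254 at 1.5-fold and 43 at 3-fold. Lower floors test more genes, of fewer reads.

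The members' share was 4.67% of reads in WT and 4.45% in Δ*gul*-*1* without the 50 most abundant genes in the total, and 5.92% and 5.85% of summed RPKM, always lower in Δ*gul*-*1*.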
